A study of Homo sapiens with 8 samples.

Results

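The 240 protein-coding genes of human chromosome 19 whose symbol is ZNF followed by a number were examined for acetylated H3K27 (H3K27ac) at their transcript starts. They were taken by symbol from the GENCODE annotation of GRCh37 and make up 240 of its 20163 protein-coding genes. Peaks of all 6 libraries were merged where they overlapped by 1 bp or more, which gave 49186 regions, and 114 of these held a transcript start of such a gene. These 114 regions covered the starts of 107 of the 240 genes, and 133 genes had no region at any start. The rule that chose the genes used symbol and chromosome and no measured value, but it was set with earlier results of these data known.

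The cells were A549, a human lung adenocarcinoma line with mutant KEAP1, in which NRF2 is constitutively active. They received control siRNA (3 libraries) or NRF2 siRNA (3 libraries) and were fixed 48 h after transfection, and chromatin was immunoprecipitated with an antibody against H3K27ac and sequenced. Replicate 1 of the knockdown used siRNA 28, and its other replicates used siRNA 30. The study describes the libraries of a group as biological replicates.

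Zinc finger genes named ZNF encode DNA-binding proteins, most of them carrying a KRAB domain at the amino terminus. KRAB zinc finger proteins bind transposable elements and other targets and recruit the corepressor KAP1 (TRIM28), which brings the H3K9 methyltransferase SETDB1. The genes arose by tandem duplication and lie in large arrays, of which chromosome 19 holds the most, and the bodies of many of them carry H3K9me3. H3K27ac marks active promoters and enhancers, so a peak at a start is read as an acetylated promoter.

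The members lay in 8 clusters, defined as runs of at least 10 members with neighbours no more than 500 kb apart, and 22 members lay outside them. In GRCh37 coordinates the clusters were K1 (8.6 to 9.9 Mb, ZNF414 to ZNF846, 13 members), K2 (11.6 to 12.8 Mb, ZNF653 to ZNF791, 25 members), K3 (19.8 to 24.3 Mb, ZNF101 to ZNF254, 37 members) and K4 (36.7 to 38.3 Mb, ZNF565 to ZNF573, 24 members). Further along the long arm were K5 (44 to 45 Mb, ZNF575 to ZNF180, 23 members), K6 (52.1 to 54.1 Mb, ZNF175 to ZNF331, 39 members), K7 (56 to 57.2 Mb, ZNF628 to ZNF835, 16 members) and K8 (57.7 to 59 Mb, ZNF264 to ZNF446, 41 members).

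Promoter sequences came from the RefSeq table of build GRCh38.p14, which gave 250 bases before and 50 after a start for 210 of the 240 members. Of these, 209 matched GRCh37 exactly at a single position, which gave the coordinates below. The 250 bases before the start are printed 5′ to 3′ on the gene's strand, and capitals mark letters matching any of the 8 motifs searched on either strand. These were the GC box GGGCGG, the CCAAT box, the TATA box with the letters TATAAA, TGACNNNGC (the core of the antioxidant response element), the ETS-type CCGGAAGT, GCCATCTT, GCGCATGC and CTCGCGAG. The first set is from K3 and is shown because many promoters of this array are alike in sequence, while some carry acetylation and others do not. ZNF43 (chr19:22018985-22019234, minus strand) and ZNF675 (chr19:23870015-23870264, minus strand) had a region called in all 6 libraries, and ZNF91 (chr19:23578274-23578523, minus strand) had none.
ZNF43: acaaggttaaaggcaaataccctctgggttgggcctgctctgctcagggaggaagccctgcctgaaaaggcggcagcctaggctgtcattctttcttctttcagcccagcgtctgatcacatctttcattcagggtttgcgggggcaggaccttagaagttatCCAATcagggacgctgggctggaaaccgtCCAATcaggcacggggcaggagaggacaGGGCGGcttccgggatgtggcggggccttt
ZNF675: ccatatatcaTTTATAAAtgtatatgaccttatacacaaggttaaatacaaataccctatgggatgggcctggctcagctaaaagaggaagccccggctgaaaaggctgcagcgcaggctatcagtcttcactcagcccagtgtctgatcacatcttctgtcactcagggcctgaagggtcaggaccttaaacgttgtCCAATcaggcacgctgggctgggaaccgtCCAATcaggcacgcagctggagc
ZNF91: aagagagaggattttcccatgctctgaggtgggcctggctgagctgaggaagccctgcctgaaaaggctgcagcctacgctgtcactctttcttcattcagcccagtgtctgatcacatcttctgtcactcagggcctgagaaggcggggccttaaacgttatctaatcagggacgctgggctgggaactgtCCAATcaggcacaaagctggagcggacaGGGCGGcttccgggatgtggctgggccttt

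The second set is from K6 and K8 and shows a promoter with a region in all 6 libraries beside one without any region in the same cluster. In K6 these were ZNF613 (chr19:52430475-52430724, plus strand), with a region, and ZNF577 (chr19:52391205-52391454, minus strand), without one. In K8 these were ZNF274 (chr19:58694178-58694427, plus strand), with a region, and ZNF671 (chr19:58238993-58239242, minus strand), without one.
ZNF613: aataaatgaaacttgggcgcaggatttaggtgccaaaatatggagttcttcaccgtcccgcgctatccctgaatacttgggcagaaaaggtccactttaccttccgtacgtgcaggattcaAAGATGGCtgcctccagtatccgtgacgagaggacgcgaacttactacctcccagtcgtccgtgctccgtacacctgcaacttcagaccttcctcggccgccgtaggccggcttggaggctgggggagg
ZNF577: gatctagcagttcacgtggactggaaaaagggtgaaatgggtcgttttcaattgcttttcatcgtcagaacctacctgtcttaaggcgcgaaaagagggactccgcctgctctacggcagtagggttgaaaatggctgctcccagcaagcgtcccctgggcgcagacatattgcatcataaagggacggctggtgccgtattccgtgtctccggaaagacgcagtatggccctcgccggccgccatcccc
ZNF274: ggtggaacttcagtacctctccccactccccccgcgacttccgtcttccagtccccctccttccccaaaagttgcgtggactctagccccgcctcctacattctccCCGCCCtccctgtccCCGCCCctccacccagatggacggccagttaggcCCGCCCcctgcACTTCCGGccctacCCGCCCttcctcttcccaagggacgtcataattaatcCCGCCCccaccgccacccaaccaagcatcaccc
ZNF671: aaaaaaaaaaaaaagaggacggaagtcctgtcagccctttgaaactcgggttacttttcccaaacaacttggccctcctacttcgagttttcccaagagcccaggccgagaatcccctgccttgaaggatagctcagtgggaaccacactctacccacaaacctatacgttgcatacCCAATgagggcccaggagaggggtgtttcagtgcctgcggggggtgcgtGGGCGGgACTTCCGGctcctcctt

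The third set holds the promoters at the regions of smallest p in each direction when control and NRF2 siRNA were compared. ZNF557 (chr19:7069464-7069713, plus strand) ranked lower and ZNF579 (chr19:56092215-56092464, minus strand) ranked higher with NRF2 siRNA.
ZNF557: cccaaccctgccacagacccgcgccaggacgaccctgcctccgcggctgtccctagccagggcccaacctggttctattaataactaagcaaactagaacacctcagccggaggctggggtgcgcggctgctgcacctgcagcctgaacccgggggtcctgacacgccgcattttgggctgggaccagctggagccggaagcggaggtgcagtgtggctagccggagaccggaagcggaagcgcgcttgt
ZNF579: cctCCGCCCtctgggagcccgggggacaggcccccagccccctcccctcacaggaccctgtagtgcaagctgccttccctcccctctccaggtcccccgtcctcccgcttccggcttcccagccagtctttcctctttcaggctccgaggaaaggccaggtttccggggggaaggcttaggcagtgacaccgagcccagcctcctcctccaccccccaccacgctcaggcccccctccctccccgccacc

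The 6 peak lists held 23885 to 41571 peaks, and the shortest of each group was replicate 1. The study's notes describe both replicate 1 libraries as less deeply sequenced, and only the peaks of replicates 2 and 3 are named with a flow cell identifier. Since siRNA 28 was used in replicate 1 alone, the siRNA and this batch cannot be told apart. The lists hold no read counts per peak, so no interval that needs them is given. Epithelial KRT8, KRT18, EPCAM and CDH1 and the foregut factors FOXA1 and FOXA2 had a region in all 6 libraries, whereas KRT19 and the lung markers NKX2-1, SFTPB and SFTPC had none. Of the blood, endothelial, fibroblast and muscle markers found in the annotation, COL1A1 had a region in 2 libraries and the rest in 0. The lists do not measure NRF2 itself, but at AKR1C1, an NRF2 target, the region ranked lower with NRF2 siRNA (score change −1.20, limma adjusted p = 0.0146). At NQO1, another target, percentiles did not overlap between the groups (99.3, 99.1 and 99.4 against 95.1, 87.2 and 94.5), with an adjusted p of 0.0508 (0.0223 with the replicate block). Of the other NRF2 targets on the marker list, GCLM and TXNRD1 had changes of −0.80 and −0.67 (limma adjusted p = 0.0619 and 0.0833), and AKR1B10 had 0.18 (limma adjusted p = 0.636).

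A region held a start of 44.6% of the 240 members, against 53.6% of the 1240 other coding genes of chromosome 19, 78.8% of the 236 ZNF genes on other chromosomes and 58.2% of all coding genes. By the number of libraries that called their start, 49 members were called in all 6 libraries, 14 in 5, 19 in 4, 6 in 3, 7 in 2 and 12 in 1. Of the 13 regions called in a single library, 12 were called in control siRNA replicate 3 alone, the longest list, and 1 in NRF2 siRNA replicate 3 alone. Without control siRNA replicate 3, 95 members (39.6%) had a region.

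In the control siRNA libraries 63, 83 and 106 members were called in replicates 1, 2 and 3, which was 26.2%, 34.6% and 44.2% of the 240. In the NRF2 siRNA libraries the numbers were 50, 89 and 93, or 20.8%, 37.1% and 38.8%. The groups overlapped, the means were 35.0% ± 8.97 and 32.2% ± 9.90 (SD, n = 3 each), and within each group the longer list called more members. When each list was shortened to its strongest 23885 peaks, the length of the shortest, the counts were 56, 66 and 77 with control siRNA and 49, 68 and 70 with NRF2 siRNA. The direction of the difference in means rested on single libraries: the control mean was 30.4% without its replicate 3, below the NRF2 siRNA mean, and the NRF2 siRNA mean was 37.9% without its replicate 1, above the control mean.

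Within replicate pairs, gain and loss of calls went opposite ways. In pair 1, 49 members were called in both libraries, 14 in control siRNA alone and 1 in NRF2 siRNA alone. In pair 2 the numbers were 81, 2 and 8, and in pair 3 they were 92, 14 and 1. Control siRNA libraries thus called more members in pairs 1 and 3 and fewer in pair 2. The number of member regions called in every library of one treatment and in 0 of the other treatment was 0 in both directions. Over all 49186 regions 2.27% were called in 3 control and 0 NRF2 siRNA libraries, and 0.83% the other way.

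The share of members with a region differed from cluster to cluster. It was 76.9% in K1 (10 of 13), 73.9% in K5 (17 of 23), 68.8% in K7 (11 of 16) and 63.6% outside the clusters (14 of 22). It was 54.2% in K4 (13 of 24) and 41.5% in K8 (17 of 41). It was lowest in K2 with 28.0% (7 of 25), K6 with 25.6% (10 of 39) and K3 with 21.6% (8 of 37). Genes of a cluster are not replicates, so these shares are a description and carry no test.

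**Figure D1:**
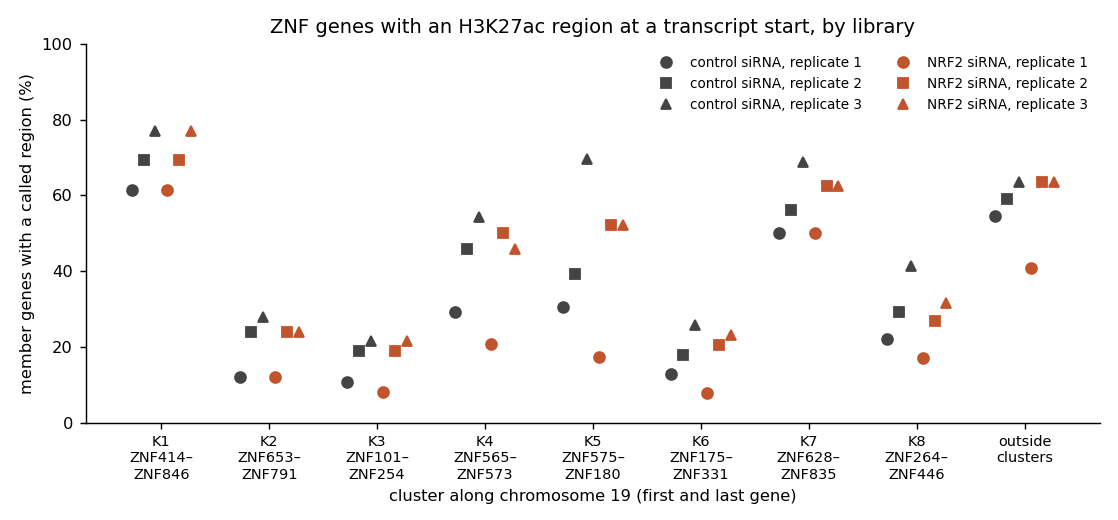
Percent of member genes with a called region at a transcript start (vertical axis) in each cluster of chromosome 19 (horizontal axis), one point per library, grey for control siRNA and orange for NRF2 siRNA, with circles, squares and triangles for replicates 1, 2 and 3. In each of the 6 libraries K1 lies above K2, K3 and K6, and the replicate 1 libraries lie lowest in their group or tied with the lowest.

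The order of the clusters was similar in every library. K1 ran from 61.5% to 76.9% and K7 from 50% to 68.8% over the 6 libraries. K3 ran from 8.11% to 21.6%, K6 from 7.69% to 25.6% and K2 from 12.0% to 28.0%, so these 3 did not overlap with K1 or K7. K5 was the most variable, with 30.4%, 39.1% and 69.6% in the control siRNA libraries and 17.4%, 52.2% and 52.2% in the NRF2 siRNA libraries. Many K5 members were thus called in the longer lists alone, and only 5 of its 19 regions were called in all 6 libraries, against 8 of 11 in K1 and 8 of 11 in K7.

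The clusters also differed in how densely regions lay along them, counting those at gene starts. In K4, for instance, 12 of the 16 regions held a member start, 3 another coding start and 1 no coding start. K3, which spans 4.53 Mb, held 18 regions in all, or 3.97 per Mb, whereas the chromosome as a whole held 24.7 per Mb. K2, K6 and K4 held 8.65, 9.46 and 9.79 regions per Mb, and K1, K7, K8 and K5 held 22.6, 23.4, 22.5 and 29.7. Other coding genes inside the clusters followed the order of the members only in part. A region lay at a start of 4 of 15 of them in K1, 4 of 14 in K2, 0 of 3 in K3, 4 of 8 in K4, 10 of 14 in K5, 2 of 15 in K6, 8 of 24 in K7 and 6 of 24 in K8. Their share was lowest in K3 and K6, as for the members. It was 26.7% in K1, where that of the members was highest. Regions holding no coding start were also few in K4 (0.612 per Mb), K2 (1.73) and K3 (1.76), compared with 12.4 per Mb on the whole chromosome.

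Acetylation was rare within the bodies of the genes as well. A region that held no coding start lay in the body of 17 of the 240 members (7.08%), against 21.4% of other coding genes of the chromosome and 21.6% of ZNF genes elsewhere. Per 100 kb of gene body this was 0.261, 1.51 and 1.04 regions. Members without a region at a start were also mostly far from any. Distances were taken from the 5′ end of the gene record, not from every transcript start. The median to the nearest region was 60287 bp, 72 of the 133 lay over 50 kb away and 9 lay within 1 kb. ZNF99 in K3 lay farthest, at 902117 bp.

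Reads of low mapping quality had been dropped before peak calling, which can touch genes with near copies. The share of windows of the read length that occur once in the genome was therefore computed over the 1 kb around each 5′ end. It was at least 90% for 236 of the 240 members, for 105 of the 107 with a region and for 131 of the 133 without. Among these 236 members 44.5% had a region. All 37 members of K3 and all 13 of K1 were among them, so their shares could not change. Only exact matches were counted, so the effect of near copies was not tested.

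The merged regions at member starts were narrow. Their median width was 1106 bp, and widths ran from 258 to 4372 bp, against medians of 1978 bp at other coding genes of the chromosome, 1568 bp at ZNF genes elsewhere and 2073 bp at all coding genes. The median length called in a member region was 1048, 901 and 955 bp in the control siRNA libraries and 923, 909 and 1024 bp in the NRF2 siRNA libraries. These medians overlapped between the groups (968 ± 74.1 and 952 ± 62.7 bp, SD, n = 3 each), and in every library they lay below the 1289 to 1866 bp found over all coding genes. Only 20 of the 114 regions exceeded 2 kb.

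**Figure D2:**
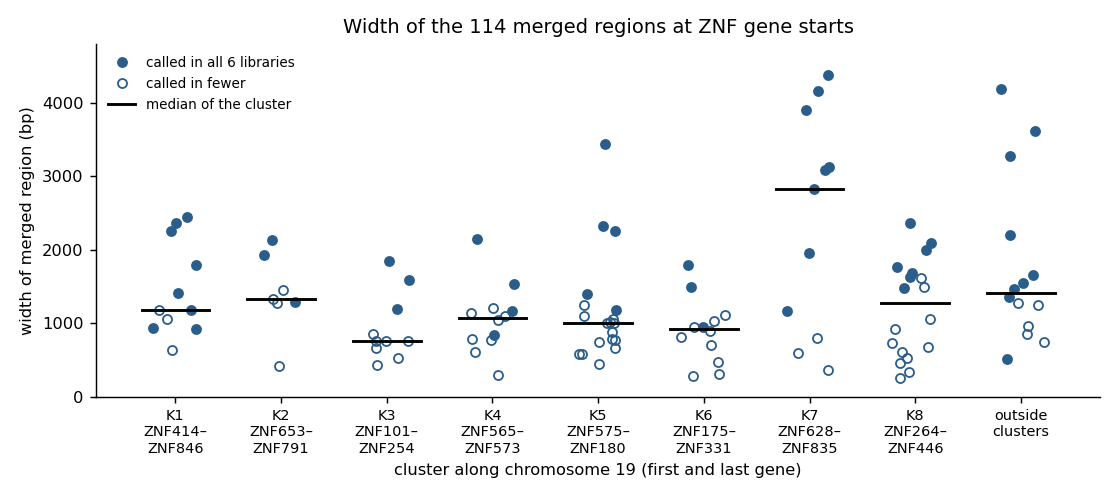
Width in bp of each merged region at a member start (vertical axis) by cluster (horizontal axis), filled circles for regions called in all 6 libraries, open circles for the others, and a bar at the cluster median. The median is 2828 bp in K7 and 759 bp in K3, and most regions over 2 kb are filled.

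Width also differed between clusters, with a median of 2828 bp in K7, 1331 bp in K2, 1270 bp in K8, 1183 bp in K1 and 759 bp in K3. The widest region, of 4372 bp (chr19:56091062-56095433), held the start of ZNF579 in K7. The next was the 4188 bp region (chr19:42721000-42725187) that ZNF526, outside the clusters, shares with DEDD2. The third, of 4154 bp (chr19:56151676-56155829), held starts of the neighbours ZNF580 and ZNF581 and of CCDC106. In all, 18 of the 114 regions also held a start of a coding gene that is no member, and 4 held starts of 2 members, so their acetylation cannot be assigned to one gene.

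Strength was read as a percentile, the percent of a library's own peaks whose fold enrichment is at or below the highest in the region, because fold values of lists of different depth are not comparable. Over the 50 member regions called in all 6 libraries the median percentile was 60.01, 70.2 and 78.3 in the control siRNA libraries and 55.7, 70.3 and 76.1 in the NRF2 siRNA libraries. The groups overlapped (69.5 ± 9.15 and 67.4 ± 10.5, SD, n = 3 each), and percentiles were higher in the longer lists, which hold more weak peaks. The medians over all coding genes were 67.4, 73.6 and 81.3 with control siRNA and 62.5, 72.4 and 76.7 with NRF2 siRNA, above those of the members in each library. Ranked among regions with a coding start alone, the median member region stood at percentile 41.2, 35.3 and 40.2 with control siRNA and 44.4, 35.6 and 39.4 with NRF2 siRNA.

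The strongest member region called in all 6 libraries stood in K7, at ZNF524 and its neighbour FIZ1 (percentiles 81.3, 90.9 and 91.9 with control siRNA and 92.3, 89.6 and 89.8 with NRF2 siRNA). In K5 the highest was at ZNF576, shared with IRGQ and SRRM5 (78.3, 81.1 and 85.7 against 96.6, 84.0 and 86.4). In K1 the highest was at ZNF562 (85.3, 72.0 and 87.4 against 76.1, 84.0 and 86.5). The groups overlapped at all 3.
The highest of the remaining clusters were lower. ZNF146, which encodes a protein of zinc fingers without a KRAB domain, shares its K4 region with ZNF565 (65.3, 77.3 and 86.8 against 81.1, 69.5 and 83.8). The highest of K8, at ZNF497, had percentiles of 54.9, 79.0 and 92.7 against 68.2, 75.9 and 87.5, and that of K2, at ZNF564, had 68.2, 78.4 and 87.1 against 55.9, 82.8 and 84.6. In K6 the highest was at ZNF766 (47.7, 75.5 and 71.9 against 24.2, 75.1 and 82.6). Groups overlapped at these 4 regions too. In K3 the highest was at ZNF43, described below, where they did not overlap.

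The weakest region called in all 6 libraries was at ZNF527 in K4, with percentiles of 5.55, 0.766 and 27.9 with control siRNA and 42.9, 17.1 and 14.9 with NRF2 siRNA. The regions closest to the median of those called in all 6 libraries were at ZNF837 in K8, described below, and at ZNF383 and its neighbour ZNF585B in K4 (34.8, 68.7 and 83.5 against 65.8, 63 and 76.4). The lowest of K6 was ZNF613 (42.6, 53.7 and 74.5 against 3.63, 41.2 and 46.6), and that of K8 was ZNF584 (34.1, 66.7 and 75.3 against 7.26, 49.1 and 51.2). Both had higher means with control siRNA, but the groups overlapped. The lowest of K1, K5 and K7 were ZNF558 (53.4, 50.5 and 73.7 against 25.3, 50.8 and 68.7), ZNF575 shared with ETHE1 (46.0, 52.9 and 77.1 against 19.9, 52.7 and 58.0) and a 1158 bp region of ZNF580 and ZNF581 (41.0, 53.6 and 65.9 against 63.2, 43.5 and 57.5). In K2 the lowest was at ZNF823 (60.2, 64.6 and 75.7 against 45.9, 45.4 and 52.8), where the groups did not overlap, and in K3 it was at ZNF254 (45.9, 71.2 and 65.7 against 14.6, 59.3 and 62.8), where they did. No order between those of K1, K5 and K7 can be read beyond the spread of their libraries.

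Genes of known role were divided between acetylated and unmarked starts. ZNF91 and ZNF93, repressors of SVA and L1 retrotransposons, had no region in any library. The nearest lay 290797 and 123652 bp from the 5′ end of the gene record, as do all distances given here. ZNF154, ZNF671, ZNF577 and ZNF382, which are frequently methylated at the promoter in cancers, had none either, with the nearest region at 26905, 19312, 35852 and 31240 bp. The starts of ZNF568 (nearest region at 143243 bp), of the neuronal factor ZNF536 (76275 bp) and of ZNF649 (21762 bp) were also unmarked. ZNF296 had no region at its start, but one lay 185 bp from it.

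ZNF274, which binds the 3′ ends of zinc finger genes and recruits SETDB1, had a 1632 bp region in all 6 libraries, with percentiles of 50.5, 69.8 and 83.3 with control siRNA and 19.5, 77.5 and 79.5 with NRF2 siRNA. ZNF473, a component of histone mRNA 3′ end processing, shares its region with VRK3 and had 31.3, 38.2 and 68.8 against 28.8, 59.6 and 70.2. Neither region separated the groups. ZNF331, an imprinted gene, had a pair of regions, one called in 6 libraries (60.2, 37.2 and 68.5 against 30.6, 55.2 and 67.4) and one called in 5, without NRF2 siRNA replicate 1 (14.5, 56.1 and 64.3 against 57.7 and 52.8). ZNF224 was close to the limit of detection: it was called in control siRNA replicate 3 at percentile 0.0313 and in NRF2 siRNA replicate 2 at 2.83, and in no other library.

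To ask whether NRF2 siRNA moved the rank of these promoters, the 32673 regions called in at least 3 libraries were ranked in each library and the normal scores of the ranks were compared with limma, with Benjamini-Hochberg adjustment over all of them. A score change is the NRF2 siRNA mean minus the control siRNA mean in units of a standard normal distribution, and a region that a library did not call takes its lowest rank. Of the member regions 94, at the starts of 88 genes, were tested, and the 20 called in only 1 or 2 libraries were not. None of the 94 passed an adjusted p of 0.05 in either direction, while 3.39% of all regions did as lower and 2.01% as higher. At an unadjusted p under 0.05 limma gave 8 lower and 3 higher member regions of the 94, where over all regions 10.7% were lower and 11.9% higher. Most regions hold no coding start, and regions that do were also seldom higher. Of the 10883 tested regions at a start of any coding gene, 830 were lower and 431 higher at that unadjusted p. At the adjusted p by limma, 156 of these were lower and 49 higher. With the replicate number as a block, 1 of the 94 passed as lower, at ZNF557, and 0 as higher, where over all regions 6.62% and 5.72% passed.

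Of the 94 regions 49 had a negative and 45 a positive change, the median was −0.02, and the median over all 32673 regions was 0.02. Of these, 25 were called in neither replicate 1 library, and all 25 carry a pair 1 change of 0.25, which is the difference between the lowest scores of those lists and not a measured value. Among these 25 regions 5 had a negative and 20 a positive change. Among the 69 called in a replicate 1 library 44 were negative and 25 positive, with a median of −0.14. Of those 69, the 50 called in all 6 libraries had 26 negative and 24 positive changes, with a median of −0.01. The rest were called in a single replicate 1 library, and the other replicate 1 library gives them its lowest score. For the regions called in both libraries of a pair the median change was 0.01 in pair 1 (50 regions), 0.00 in pair 2 (87) and −0.09 in pair 3 (94). Cluster medians over all tested regions ran from −0.14 in K6 (5 negative and 4 positive) to 0.10 in K4 (4 negative and 6 positive), with −0.17 for the 14 regions outside the clusters.

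**Figure D3:**
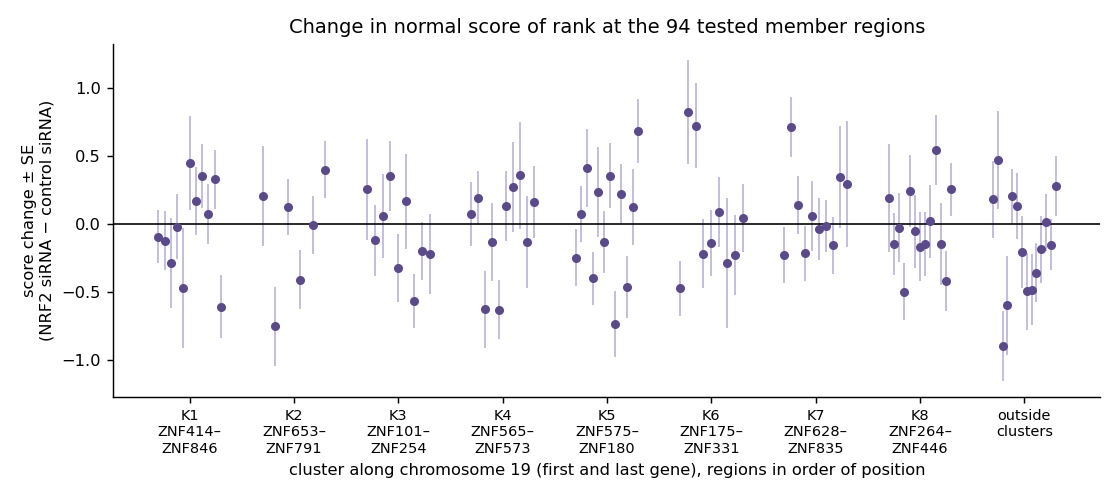
Score change with its standard error (vertical axis, NRF2 siRNA minus control siRNA, in normal score units) of the 94 tested member regions, in order of position within each cluster (horizontal axis). Points lie on both sides of 0 in every cluster, from −0.89 to 0.82, and none passes the adjusted p threshold of 0.05.

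Percentiles of the control and NRF2 siRNA libraries did not overlap at 7 member regions that were lower and 2 that were higher, of 94, where an uncalled region counts as below all called ones. Over all tested regions 12.8% did so as lower and 7.39% as higher, so neither count of members exceeded the background. Among the 10883 tested regions at a start of any coding gene, 1165 did so as lower and 354 as higher. The 7 were at ZNF557, ZNF846, ZNF627, ZNF823, ZNF43, ZNF30 and ZNF226, and the 2 were at ZNF579 and ZNF180. ZNF627 shares its region with ELOF1.

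ZNF557, outside the clusters, had the smallest p of the lower regions. Its 1247 bp region (chr19:7068864-7070110), which also holds a start of MBD3L3, stood at percentiles 62, 63.4 and 81.4 with control siRNA, was not called in NRF2 siRNA replicate 1, and stood at 48.7 and 49.4 in replicates 2 and 3. All 3 control values lay above all NRF2 siRNA values. The score change was −0.89 ± 0.26 (SE, n = 3 each), with an adjusted p of 0.0780 by limma and 0.0464 with the replicate block. In pairs 1, 2 and 3 it was −1.36, −0.38 and −0.94.

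ZNF226 in K5 stood at 7.56, 25 and 46.9 with control siRNA, was not called in NRF2 siRNA replicate 1, and stood at 1.55 and 1.43 in replicates 2 and 3. All of these lie in the lower part of the lists, and the groups did not overlap (score change −0.73 ± 0.24, limma adjusted p = 0.115). ZNF567 in K4 was similar in level, at 5.82, 33.2 and 41.4 against 3.86 and 10.0, with no call in NRF2 siRNA replicate 1 (−0.63 ± 0.21, limma adjusted p = 0.122). Its groups overlapped, since control siRNA replicate 1 lay below NRF2 siRNA replicate 3.

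ZNF675 in K3, which encodes an inhibitor of TRAF6 signalling, stood at 55.1, 73.4 and 79.8 with control siRNA and at 19.5, 49.0 and 57.0 with NRF2 siRNA. Each NRF2 siRNA library lay below the control of its number, but the groups overlapped (score change −0.57 ± 0.20, limma adjusted p = 0.125). ZNF846 in K1 had a 2443 bp region at 80.1, 61.7 and 76.5 against 21.7, 49.2 and 57.5, without overlap (−0.61 ± 0.23, limma adjusted p = 0.159). An exact two-sided permutation test of its percentiles gave p = 0.1, the smallest that 3 against 3 libraries allow. At ZNF43 the 1581 bp region also stood lower without overlap of the groups, at 70.1, 63.2 and 69.7 with control siRNA and 54.8, 52.7 and 49.9 with NRF2 siRNA (−0.32 ± 0.25, limma adjusted p = 0.503), whereas its other region of 751 bp had 46.3 and 58.0 in control siRNA replicates 2 and 3 and 50.6 and 60.2 in NRF2 siRNA replicates 2 and 3.

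**Figure D4:**
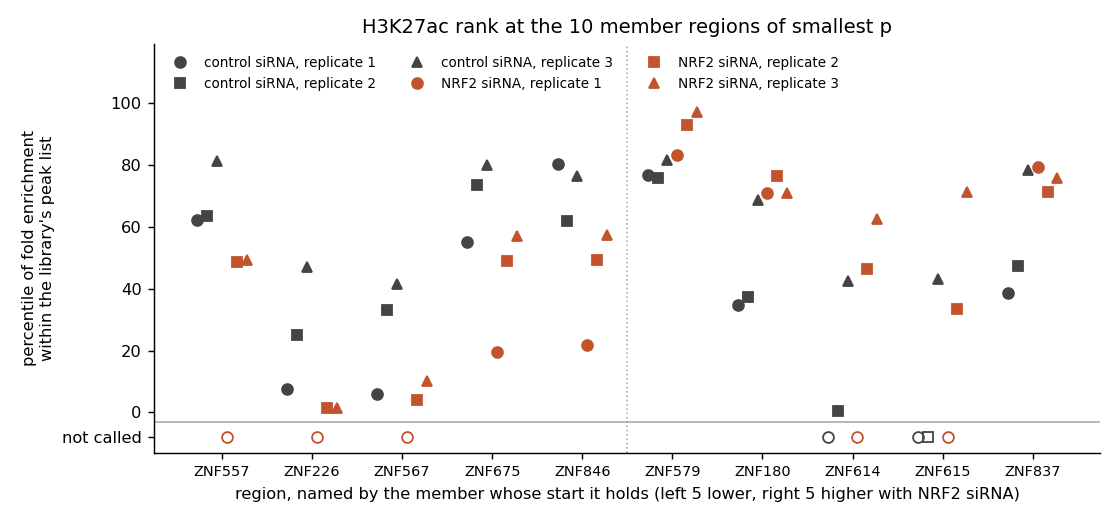
Percentile of fold enrichment within each library's peak list (vertical axis) at the 5 lower and 5 higher member regions of smallest p (horizontal axis), grey for control siRNA and orange for NRF2 siRNA, circles, squares and triangles for replicates 1, 2 and 3, and open symbols for libraries without a call. All control siRNA points lie above all NRF2 siRNA points at ZNF557, ZNF226 and ZNF846 and below them at ZNF579 and ZNF180.

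ZNF579 in K7, the widest region, was also that of smallest p among the higher ones. It stood at 76.8, 75.7 and 81.6 with control siRNA and at 83.1, 93.0 and 96.9 with NRF2 siRNA. The groups did not overlap (score change 0.72 ± 0.22, limma adjusted p = 0.0937, and 0.0646 with the replicate block). ZNF180 in K5 stood at 34.7, 37.4 and 68.5 against 70.9, 76.3 and 70.9, without overlap (0.68 ± 0.23, limma adjusted p = 0.120). Its 3 NRF2 siRNA values lay close together, while control siRNA replicate 3 lay near them and apart from the other controls.

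The neighbours ZNF614 and ZNF615 in K6 were the next. Neither was called in the replicate 1 libraries, and ZNF614 stood at 0.515 and 42.3 in control siRNA replicates 2 and 3 and at 46.2 and 62.6 in NRF2 siRNA replicates 2 and 3 (0.72 ± 0.31, limma adjusted p = 0.212). ZNF615 was called in control siRNA replicate 3 (43.3) and in NRF2 siRNA replicates 2 and 3 (33.5 and 71.2), with a change of 0.82 ± 0.38 (limma adjusted p = 0.245). ZNF837 in K8 stood at 38.7, 47.3 and 78.2 against 79.3, 71.1 and 75.8 (0.54 ± 0.26, limma adjusted p = 0.255). The groups overlapped at these 3 regions, and in no case did the test pass. The changes of ZNF614 and ZNF615 include the pair 1 value of 0.25 that 2 uncalled libraries receive.

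The genes of the repressive pathway that KRAB zinc finger proteins use were examined beside them. All 25 genes of a list of KAP1, its partners and H3K9 methylation had a region at a start, in 5 or 6 libraries each, and 0 of their 31 tested regions passed in either direction by limma, with or without the replicate block. TRIM28, which encodes KAP1, stood at 76.7, 87.7 and 94.4 with control siRNA and at 65.3, 76.6 and 85.7 with NRF2 siRNA (score change −0.36 ± 0.22, limma adjusted p = 0.378). SETDB1, the methyltransferase, stood at 46.9, 71.8 and 77.3 against 72.5, 64.4 and 68.8 (0.09 ± 0.24, limma adjusted p = 0.861). The histone deacetylase gene HDAC2 had the smallest unadjusted p of the list, with 40.3, 64.2 and 79.4 against 90.5, 76.3 and 83.0 (0.66 ± 0.27, limma adjusted p = 0.189). The groups overlapped at all 3.

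The promoter sequences were compared within and between clusters. In K3, 62.6% of the 406 pairs of promoters were over 70% identical in a global alignment, with a median identity of 75.3%, whereas 0 of the 19312 pairs from different clusters were. In K6 9.07% of pairs were over that limit, in K2 2.17%, and in K1, K4, K5, K7 and K8 none. The printed promoters of ZNF43 and ZNF91 belong to 300-base windows that were 78.9% identical. ZNF675, printed beside them, was over 70% identical to neither, and within K3 only to ZNF708 (70.9%). The windows are fixed by the RefSeq start and gaps at their ends are penalised, so identity can fall where starts are placed differently. The printed letters of ZNF675 and ZNF91 share long runs at different distances from the start, so a value under 70% does not show that they are unrelated. The closest pair of K3, ZNF714 and ZNF431, was 91.0% identical. ZNF714 was called in 4 libraries and ZNF431 in 2.

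All 29 matched K3 promoters held CCAAT (both strands searched), as in the capitals of ZNF43, ZNF675 and ZNF91, and 91.7% of K2 promoters did, against 52.9% of members and 36.6% of all 15318 coding promoters. In K3 it was therefore present in the 8 with a region and the 21 without. K8 promoters held CCGGAAGT in 55.3% (21 of 38), against 19% of members and 6.33% of all coding promoters. Of the 21 K8 promoters with it, 7 had a region and 14 had none. GGGCGG was found in 69.5% of members and 59.3% of all coding promoters. TGACNNNGC, the core of the element that NRF2 binds, was found in 14.8% of members and 14.3% of all coding promoters.

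GCCATCTT was found in 12 of the 97 promoters of genes with a region and in 1 of the 113 of genes without, and over all coding genes in 5.78% and 1.10%. In K6 4 of 9 promoters with a region held it, at ZNF613, ZNF615, ZNF614 and ZNF432, and 0 of 23 without did. GGGCGG went the other way over the members, in 58.8% with a region and 78.8% without. Over all coding genes it was more frequent with a region (68.97% against 43.87%). In K6 the shares of GGGCGG were 44.4% with a region and 95.7% without. GGGCGG was also less frequent with a region in K3, K4, K7 and outside the clusters. It was more frequent with a region in K2, K5 and K8, and equal in K1. A gene counts as having a region if any of its starts lies in one, and the 250 bases before the RefSeq start overlapped a region for 89 of the 96 placed promoters of such genes. These motifs, chosen with earlier results of these data known, were searched in 300-base windows, of which the 250 bases before the start are printed above. In ZNF675 the GCCATCTT match lies in the 50 bases after the start.

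**Figure D5:**
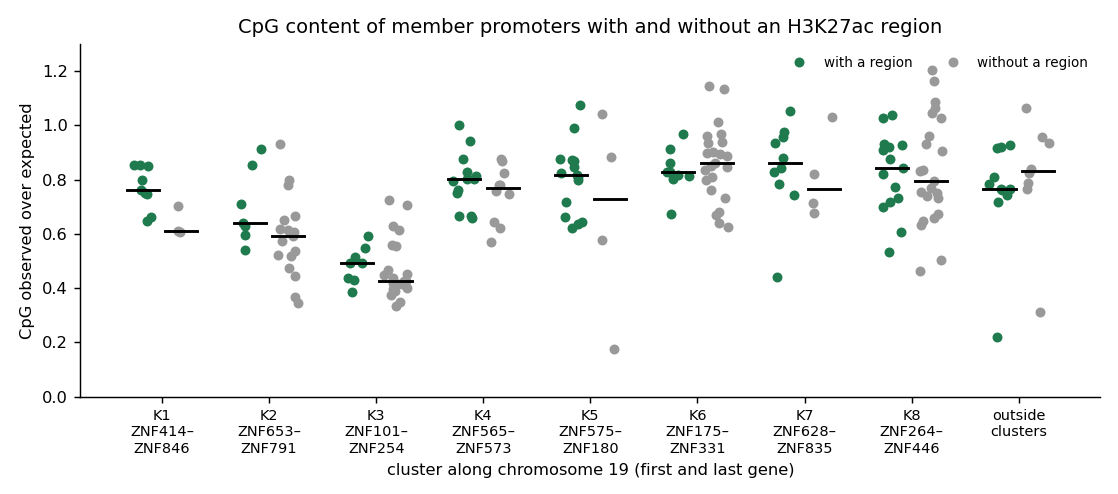
Ratio of observed to expected CpG (vertical axis) in the 300-base promoter of each matched member, by cluster (horizontal axis), green for members with a region, grey for those without, and a bar at each median. K3 lies lowest in both groups, at 0.49 with and 0.43 without a region, and K6 is high in both, at 0.83 and 0.86.

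The observed over expected CpG ratio had a median of 0.765 in the members, 0.800 with a region and 0.732 without, compared with 0.842 and 0.440 over all coding genes. Within clusters the median was higher with a region in K1, K2, K3, K4, K5, K7 and K8 and lower in K6. Outside the clusters it was also lower with a region (0.765 and 0.830). The medians with and without a region were 0.493 and 0.426 in K3, 0.638 and 0.591 in K2, 0.843 and 0.794 in K8, and 0.827 and 0.862 in K6. K3 and K6 therefore had the lowest shares of members with a region and lay at opposite ends of CpG content (0.438 and 0.849 over all their matched promoters). These are values of single promoters in one cell line, shared by copies of each other, and no test was made on them.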

How the data were processed

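H3K27ac ChIP-seq was done on A549 cells, with 3 control siRNA and 3 NRF2 siRNA libraries. Per the labels and the submitters' processing notes, the authors aligned reads to hg19 (GRCh37) with Bowtie2 2.2.6, filtered them by mapping quality with SAMtools, ran MACS2 2.1.0.20151222 in broad mode on each library, and removed blacklisted peaks. Each deposited list gives a peak's position, an integer score, a fold enrichment (a ratio), and −log10 p-values and q-values. Which background served for each list is not given in the sources used here. The 2 input libraries were not analysed here. The study states mapped reads per library, fewer for both replicate 1 libraries, but the lists hold no counts, so depth enters only through the length of a list.

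Peaks were merged where they overlapped by 1 bp or more. The GENCODE annotation lifted to GRCh37 gave genes and their starts; all 24 chromosomes with peaks were found in that sequence and 0 peaks lay past an end. Fold enrichment was used within a list alone, as a percentile or as the normal score of the rank. Scores of the 32673 regions called in at least 3 libraries entered a linear model per region (limma 3.58.1, R 4.3.3) with moderated tests, and p-values were adjusted by the Benjamini-Hochberg method and called under 0.05. This step was also run on simulated data, whose outcome is not given here. Single regions called in all libraries were also compared by exact two-sided permutation tests of the percentile. Other steps used Python 3.11.15, numpy 2.4.6, pandas 2.3.3, scipy 1.17.1 and Biopython 1.88, whose global alignment (match 2, mismatch −1, gap opening −5, extension −1) gave promoter identities, counted as identical letters over alignment length. Shares, widths and clusters are descriptions without tests.

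The replicate number was used as a block in an alternative fit. Deviations from the group mean correlated between control and NRF2 siRNA libraries of the same number (r = 0.398, 0.199 and 0.363 for replicates 1, 2 and 3 over 32673 regions), so the numbers were taken to pair the libraries, from the data and not from the labels.

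The regions named were the 5 lower and 5 higher of smallest p, the highest and lowest mean percentile of each cluster among regions called in all 6 libraries, the 3 widest, 16 genes of known role, and those closest to the median percentile. A fuller list of regions whose groups do not overlap was named after their values were seen. The genes, lists and motifs were chosen with earlier results of these data known. Alternatives were the block, lists of equal length, other filters, another summary of fold, another limma setting, a merging gap of 500 bp, a q-value limit of 1e-05, siRNA 30 pairs alone, other definitions of a start, of a width, of a percentile and of a cluster, unique promoters alone, and each library left out.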

Additional observations from a re-analysis of the deposited data

How the results depend on the processing

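The count of 0 lower member regions became 1 with the replicate block (ZNF557), 1 with lists of equal length (ZNF557), 3 with both together (ZNF557, ZNF675 and ZNF846), 2 among regions called in all 6 libraries (ZNF675 and ZNF30), 1 with trend and robust settings of eBayes (ZNF557), and 1 in the siRNA 30 pairs (ZNF559). The count of 0 higher became 1 with the block and equal lengths together, 1 with trend and robust settings and 1 in the siRNA 30 pairs, each time ZNF579. Over all regions the shares called lower were 6.62%, 5.70%, 8.81%, 2.19%, 4.59% and 6.49% in these 6 fits, and the shares called higher in the 3 with a higher call were 9.28%, 3.60% and 5.63%. Both counts were 0 under the other alternatives run. With single libraries left out, which gave 0 in each fit, only 0 to 4.96% of all regions were called lower and 0 to 2.33% higher, so those zeros say nothing about stability. With the replicate block the changes keep their size and the adjusted p of ZNF557 was 0.0464; it changed no other call among member or pathway regions. At ZNF557 adjusted p was 0.0254 with equal lengths, 0.0199 with the block as well, and 0.0459 with trend and robust settings. No region named for its p changed sign under any alternative that gave it a value.

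The share of members with a region was 35.0% with the 5′ end of the gene record as the only start, 32.9% at a q-value of at most 1e-05 and 33.3% with lists of equal length, against 44.6% as reported. The median width was 1006 bp for the called peaks that hold a start and 1259 bp with lists of equal length, against 1106 bp. The difference between the clusters of highest and lowest share (55.3 points) stayed between 49.8 and 55.3 points, although K2 was the lowest at the stricter q-value (16.0%). The differences of control and NRF2 siRNA in calls and percentile moved by less than the spread between replicates under every alternative run. Their direction was not stable. The difference in median percentile, NRF2 minus control siRNA, was −2.11 as reported. It was 0.73 among coding promoter regions, 1.29 with lists of equal length and 2.28 without control siRNA replicate 3, and negative under the others. That in calls changed sign without control siRNA replicate 3 or NRF2 siRNA replicate 1. Depth differed between libraries, and an uncalled start is below a list's threshold and not shown to lack acetylation. Members called in the longest list alone show that limit most directly.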
